A study of Mus musculus with 18 samples.

Results

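The comparison described here set 6 arrays of Trem2 knockout mice (TREM2-/-, written KO) against 5 arrays of wild-type mice (Wild_Type, written WT), all labelled 12 weeks and all C57BL/6. They are 11 of the 18 arrays of the study and were chosen by genotype and stage in the labels. The RNA came from the caudal parts of the corpus callosum, the large white matter tract that joins the hemispheres, of mice whose food held 0.2% cuprizone (CPZ). This compound binds copper, and feeding it causes loss of oligodendrocytes and of their myelin. CPZ was fed to both genotypes, and no array of mice without it was used here. Labels of single samples give the stage as an age, while the treatment protocol gives feeding times in weeks, so whether 12 weeks is an age or a time on CPZ was not settled. The exons removed in the knockout, the number of lines and whether each array is a separate mouse are not given in the sources used here. P-values therefore measure the spread between these arrays, which may in part be technical. The 7 arrays labelled 6 weeks (4 WT and 3 KO) entered the model to help estimate the spread and served for the comparison of stages at the end.

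TREM2 is a surface receptor of microglia, the resident macrophages of the brain. It binds lipids and lipoproteins, pairs with the adaptor DAP12 (encoded by Tyrobp) and signals through the kinase SYK. In demyelinating white matter, microglia are known to take up myelin debris, to lower genes of their resting state such as P2ry12 and Tmem119, and to raise genes of an activated, lipid-handling state such as Itgax, Lpl and Spp1. TREM2 is known to be needed for much of that switch, so the comparison asks which transcripts of CPZ-exposed white matter depend on it.

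Values are log2 signals of genes, each the median of the gene's probe sets, and a difference is KO minus WT on that scale, so that 1 is a doubling. Among genes of white matter, the myelin gene Mbp was bright, at 9.89 in WT and 9.11 in KO. The other myelin markers were dimmer and higher in KO, and none of them passed. Mobp was at 8.42 and 8.55, Mag at 7.78 and 7.97 and Mog at 6.46 and 6.77. The astrocyte gene Gfap was bright, at 9.99 and 10.64. So were the neuronal gene Snap25, at 10.98 and 10.71, and the choroid plexus gene Ttr, at 10.23 and 11.25. The labels do not name choroid plexus as part of the tissue. Ttr varied widely, from 8.12 to 12.55 in WT and from 9.52 to 12.71 in KO. The other choroid plexus markers were dim, with Kl at 4.88 and 5.23, Folr1 at 4.82 and 5.77 and Kcnj13 at 5.10 and 5.96. The dimmest 20% of genes, with a mean at or below the level of 3.41, were left out. Among them were Ccr2 of blood monocytes, Cd163 of border macrophages and Ngp of neutrophils. At 12 weeks Cd163 in KO (3.52) and Ngp in WT (3.47) were slightly above that level. Other markers of these cell types were brighter and were tested. Ly6c2 of monocytes was at 3.64 in WT and 3.90 in KO, and Mrc1 of border macrophages at 3.56 and 4.93. S100a9 of neutrophils was at 6.06 and 5.14. Lyve1 of border macrophages and S100a8 of neutrophils were also tested, and none of these markers passed. The 12-week samples stand in 2 blocks in order of accession, and no label says that a block is a batch. Block 1 held WT 1 and 2 (female) and KO 1 to 3 (male), and block 2 held WT 3 to 5 (male) and KO 4 to 6 (female); sex was taken from the transcripts of the X and Y chromosomes. Sex and block can therefore not be separated within a genotype at 12 weeks. A genotype difference within a block sets male arrays against female arrays. When taken among males or among females alone, it sets arrays of block 1 against arrays of block 2. Neither split isolates the genotype. Values within the blocks are given for several of the largest changes. They are also given for named genes that passed and whose blocks differ by over 1.5 times. The number of arrays, and not a depth of reading, limits the precision.

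Trem2 itself checks the labels. Its values in WT 1 to 5 were 6.83, 6.96, 7.29, 7.86 and 7.84. In KO the lowest was 4.79, the median 5.33 and the highest 5.59. Every KO array lay below every WT array, by 2.09 ± 0.28 (log2, SE) on average, which is 4.27-fold (adjusted p = 0.00253). The difference was −1.65 within block 1 and −2.38 within block 2. All 7 probe sets of Trem2 were lower in KO, from −0.74 to −3.28, so the size differed between probe sets. The brightest of them stood at 11.01 in WT and 9.12 in KO, and any probe set that lies beyond the removed exons cannot check the genotype.

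The partners of TREM2 did not pass. Tyrobp, the adaptor, was bright in both groups, at 10.37 to 11.05 in WT and 10.80 to 11.23 in KO, and differed by 0.32 ± 0.19 (adjusted p = 0.555). Of 19 tested genes of the TREM2 and DAP12 signalling chain, 13 were higher and 6 lower in KO, with a median of 0.29, and Trem2 was the 1 that passed. The members with the smallest p after it were Pik3cg (0.92, adjusted p = 0.236), a lipid kinase subunit, Btk (0.79, adjusted p = 0.295), a cytoplasmic tyrosine kinase, and Inpp5d (0.82, adjusted p = 0.312), the lipid phosphatase SHIP. Vav3 (0.90) and Vav1 (0.63), exchange factors for RAC, also did not pass, and both turned sign when the brightest probe set stood for the gene (−0.60 and −0.09). Of the Trem gene family, Treml1 (−0.28, adjusted p = 0.611) and Treml2 (−0.13, adjusted p = 0.901) overlapped between the genotypes.

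Across the 16332 genes tested, 72 passed at an adjusted p under 0.05 (limma with Benjamini-Hochberg adjustment), which is 0.441% of them. Of these 60 were higher in KO (0.367%) and 12 lower (0.0735%). By sign alone the table was nearly balanced, with 8564 genes higher, 7768 lower and a median difference of 0.02, and 1811 genes had an unadjusted p under 0.05. A difference of 1 or more in size was seen in 202 genes higher and 27 lower. The arrays of the 2 genotypes did not overlap in 67 of the 72 genes, 56 higher and 11 lower. Over all genes this held for 404 (2.47%, with 1.7% above and 0.771% below WT). The 72 were called on the difference between these same arrays, so their lack of overlap largely restates the call. All 72 had the same sign within both blocks and within both sexes. Because neither split isolates the genotype and the calls rest on these same arrays, the shared sign is no independent test. The size differed by over 1.5 times between the blocks in 17 of the 72. It was larger in block 2 in 16 and in block 1 in 1. Among the 17 were Cxcl5 (1.06 in block 1 and 2.39 in block 2), Itgam (1.24 and 2.18), Pde3b (0.93 and 2.01), Aldh1a1 (0.94 and 1.88), Scnn1a (0.55 and 1.88), H2-Q7 (0.44 and 1.70) and Cyp2d40 (−0.49 and −1.29). The others were Bst2 (0.96 and 1.77), Thrsp (1.00 and 1.68), Tmem119 (1.00 and 1.64), Slc39a12 (0.93 and 1.45), Ifitm3 (0.67 and 1.31), Syngr1 (0.74 and 1.30), Zfp882 (0.65 and 0.99), Trim66 (−0.59 and −0.91), Barx2 (−0.98 and −0.59) and a gene with a clone name. Of the largest changes, Siglech was at 2.35 and 2.43, Fcrls at 2.12 and 2.19, P2ry12 at 1.76 and 2.02, Gpr34 at 1.29 and 1.93, Cxcl10 at 1.65 and 1.71, Atp6v0d2 at −2.21 and −1.98 and Itgax at −2.15 and −1.91. The gene lists, without the 2 added later, held 27 of the 72, 24 higher and 3 lower, and 45 were in none of them.

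The count of genes passing depended on single arrays. It was 17, 52, 14, 16 and 20 without WT 1 to 5, and 73, 19, 24, 31, 26 and 15 without KO 1 to 6. Leaving out WT 4 or KO 2 of the 6-week arrays gave 122 and 129. A fit of the 11 arrays alone gave 234, array weights 191, quantile normalization 45, and separate fits within block 1 and within block 2 gave 5 and 60. The genes that passed without any 1 of the 11 arrays were Trem2, Siglech, Rtp4, Ecscr, Itgam, P2ry13, Ptgs1, Gcnt1, Thrsp, Ifit3, Ifit3b and Slc4a4, 12 in all. At the other end, 25 of the 72 passed in at most 1 of these 11 fits, and Itgax, Tmem119, Padi2 and Barx2 were among the 5 that passed in none, the remaining one having a clone name.

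**Figure D1:**
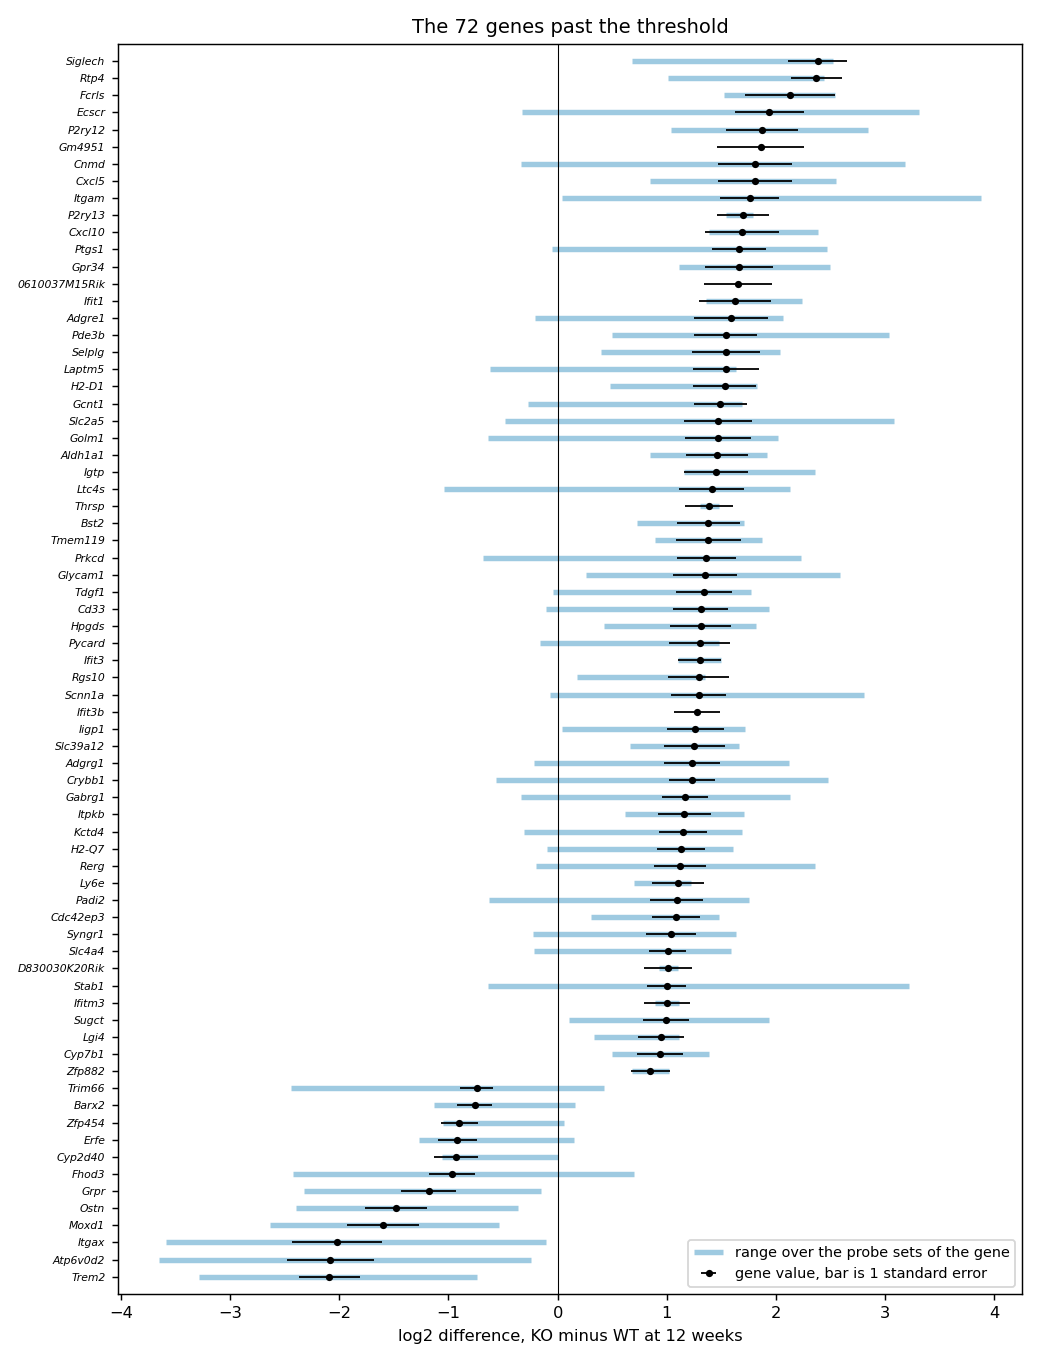
Log2 difference of KO from WT at 12 weeks (horizontal axis) for each of the 72 genes past the threshold. Black points are the gene values with bars of 1 standard error, and blue bars span the differences of the gene's single probe sets. Trem2, Atp6v0d2 and Itgax stand at −2.09, −2.08 and −2.02, Siglech and Rtp4 at 2.38 and 2.37, and in several genes the blue bar crosses 0.

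Genes of resting microglia made up the largest group of rises. Members of this and the other lists were chosen with earlier results of these data known. Their counts therefore describe the lists and are no independent test. Of 24 genes of the homeostatic list 21 were measured and tested. All 21 were higher in KO and 10 passed, where 0.367% of all genes passed in that direction, and the arrays of 13 did not overlap (1.7% of all genes). The median was 1.22, with 1.00 within block 1 and 1.42 within block 2, and 1.02 in males and 1.43 in females. Those that rose were Siglech, Fcrls, P2ry12, P2ry13, Gpr34, Selplg, Golm1, Slc2a5, Tmem119 and Crybb1. In RNA from whole tissue, more cells of a type and more RNA per cell cannot be told apart.

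Siglech encodes a sialic acid-binding lectin of microglia that also pairs with DAP12. It read 6.58, 6.11, 6.79, 5.94 and 6.67 in WT, and 8.24 at the lowest, 8.90 at the median and 9.08 at the highest in KO. It rose by 2.38 ± 0.27 (5.2-fold, adjusted p = 0.000284), and its 8 probe sets were all higher in KO.

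Fcrls encodes an Fc receptor-like scavenger receptor of mouse microglia. Its WT values were 6.09, 7.02, 6.25, 7.01 and 7.19, and KO ran from 8.22 through a median of 8.91 to 9.27. That is a rise of 2.13 ± 0.41 (4.38-fold, adjusted p = 0.0279), with 8 of 8 probe sets in the same direction.

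P2ry12 and P2ry13 encode receptors for ADP, and the first guides microglial processes towards injury. P2ry12 stood at 5.75, 6.73, 6.81, 5.74 and 6.83 in WT and from 7.31 (median 8.35) to 8.82 in KO, a rise of 1.87 ± 0.33 (3.66-fold, adjusted p = 0.021). P2ry13 stood at 7.27, 7.07, 7.29, 6.72 and 6.87 in WT and from 8.63 (median 8.79) to 8.82 in KO, a rise of 1.70 ± 0.24 (3.25-fold, adjusted p = 0.00382). The 6 KO values of P2ry13 had an SD of 0.09, and those of P2ry12 one of 0.51, with KO 1 the lowest. The remaining purinergic receptors and ectonucleotidases did not pass, and the whole list had a median of 0.43 (8 of 11 tested members higher).

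Gpr34 encodes a receptor for lysophosphatidylserine. It read 5.67, 6.42, 5.66, 5.09 and 5.90 in WT and 6.64, 7.52 and 7.82 at the lowest, median and highest in KO, a rise of 1.66 ± 0.31 (3.16-fold, adjusted p = 0.0274). Selplg (1.54), the P-selectin ligand, Golm1 (1.47), a Golgi membrane protein, Tmem119 (1.38), a membrane protein of microglia, and Crybb1 (1.23), a crystallin, passed as well. Slc2a5 (1.47), the fructose transporter, passed although KO 1, at 4.34, lay below WT 5, at 4.35. Cx3cr1, the fractalkine receptor, read 8.03 to 9.03 in WT and 9.19 to 9.63 in KO and missed the threshold (1.01, adjusted p = 0.0575), as did Csf1r (0.89, adjusted p = 0.232), the receptor that microglia need for survival.

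**Figure D2:**
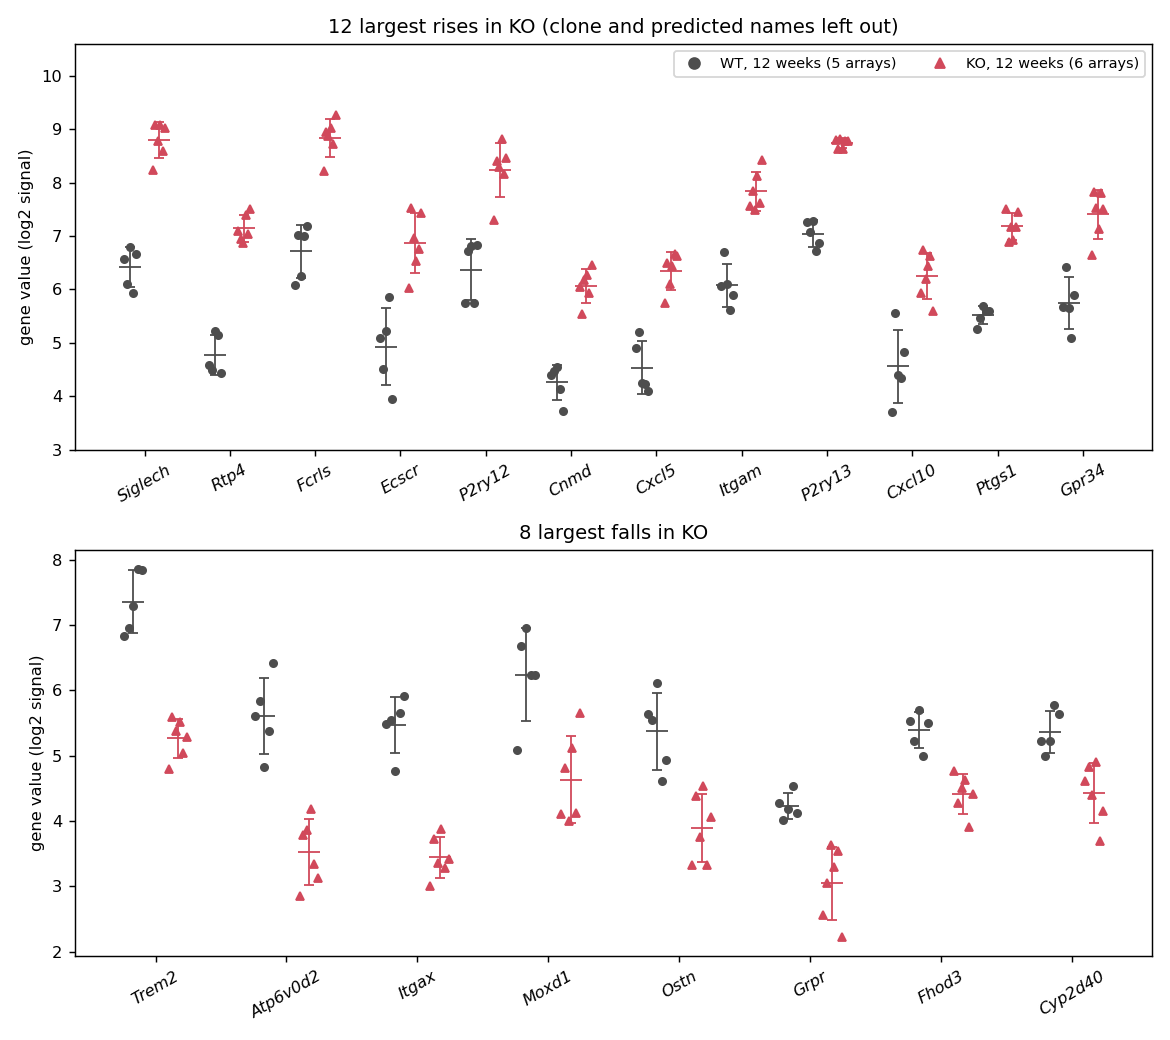
Log2 signal (vertical axis) of each array for the 12 largest rises (upper panel) and the 8 largest falls (lower panel). Grey circles are the 5 WT arrays, red triangles the 6 KO arrays, and horizontal marks with bars the mean and SD. In all of these genes but Moxd1 the 2 sets of points do not overlap.

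Of 20 tested general markers of myeloid cells 17 were higher in KO, with a median of 0.45. Itgam and Laptm5 passed, where 0.367% of all genes passed in that direction, and 6 of the 20 did not overlap (1.7% of all genes). Itgam, which encodes the integrin CD11b, read 6.07, 6.71, 6.10, 5.62 and 5.90 in WT and from 7.48 (median 7.73) to 8.42 in KO. It rose by 1.76 ± 0.27 (3.4-fold, adjusted p = 0.00556), with 32 of 32 probe sets higher, though by 0.26 in the brightest of them. Laptm5 (1.54), a lysosomal membrane protein of blood cells, and Adgre1 (1.59), which encodes the macrophage antigen F4/80, also passed. Cd37 (1.02, adjusted p = 0.071), Aif1 (1.00, adjusted p = 0.102), Lcp2 (0.80, adjusted p = 0.129) and Spi1 (1.35, adjusted p = 0.149), which encodes the transcription factor PU.1, did not pass, and their arrays did not overlap.

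The scores of whole lists, each the mean over members of values centred on the gene's mean, put the arrays side by side. The homeostatic score ran from −0.81 to −0.46 in WT and from 0.02 to 0.81 in KO, and the pan-myeloid score from −0.59 to −0.05 and from −0.08 to 0.53. KO 1 was the KO array nearest to WT in the homeostatic list (0.02, with the other 5 at 0.53 to 0.81) and in the interferon list (0.03, with the others at 0.35 to 0.58). Genes of border macrophages and blood monocytes had a median of 0.44, and 8 of 10 tested were higher in KO. Their score was −0.46 to 0.14 in WT and −0.13 to 0.86 in KO. Of these Stab1 (1.00), a scavenger receptor, passed, where 0.367% of all genes passed as higher. Mrc1 (1.37, adjusted p = 0.0712) and Cbr2 (1.01, adjusted p = 0.20) did not pass and were at −0.84 and −0.34 with their brightest probe sets. The neutrophil score (−0.30 to 0.87 in WT, −0.59 to 0.36 in KO, median of 4 tested genes −0.40) and the T cell score (−0.40 to 0.22 in WT, −0.35 to 0.25 in KO, median of 8 tested genes 0.08) overlapped. The part of these other cell types in the rises was not tested.

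**Figure D3:**
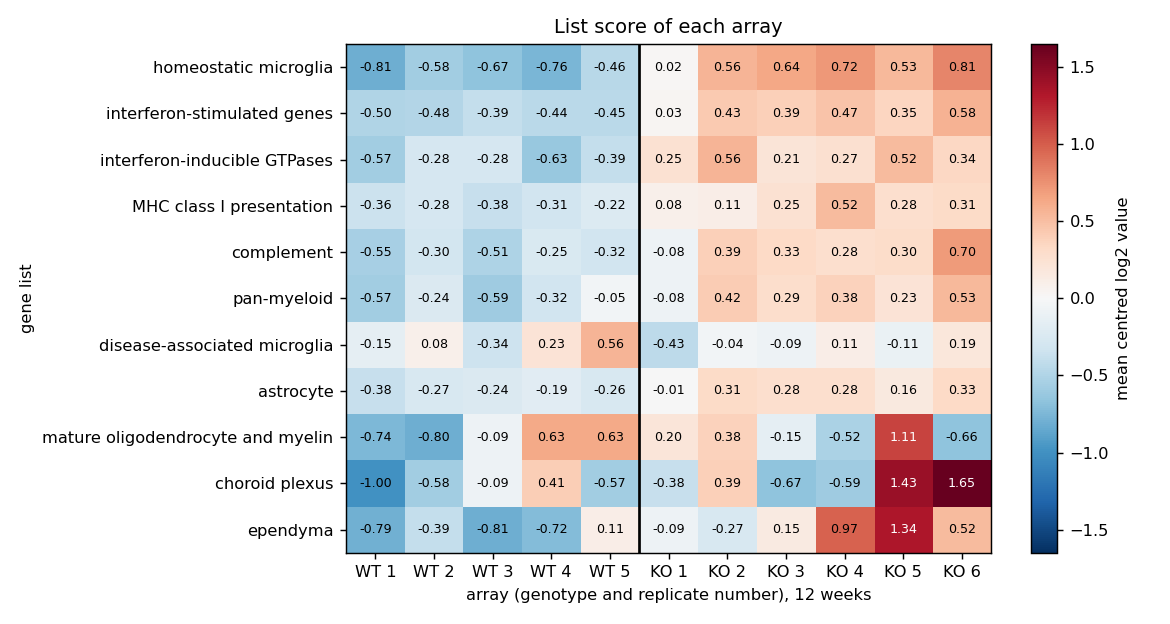
List score of each 12-week array (columns, WT left of the line and KO right of it) for 11 gene lists (rows), as the mean log2 value of the members centred on each gene's mean. Homeostatic, interferon-stimulated, interferon-inducible GTPase, MHC class I, complement and astrocyte scores are higher in every KO than in every WT array, while choroid plexus is highest in KO 5 and KO 6, at 1.43 and 1.65.

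Further genes that rose are known from microglia or myeloid cells and lay outside the homeostatic list. They were Cd33 (1.31), an inhibitory lectin of the Siglec type, Adgrg1 (1.23), an adhesion receptor, Rgs10 (1.29), which shortens G protein signals, Prkcd (1.36), a protein kinase C, Itpkb (1.16), an inositol trisphosphate kinase, and Pycard (1.30), the adaptor ASC of inflammasomes. Pycard was at −0.16 with its brightest probe set. Of 10 tested genes of the MS4A family and Siglec-type lectins, Siglech and Cd33 passed (0.367% of all genes passed as higher). The median of that list was 0.09. Of 16 tested cytokine and inflammasome genes Pycard was the 1 that passed (11 higher, median 0.36), and Il1b, which encodes interleukin-1β, was at −0.66 (adjusted p = 0.172). None of 16 tested Toll-like receptors and co-factors passed (13 higher, median 0.44). The smallest p among them belonged to Tlr13 (1.76, adjusted p = 0.0673), Ly86 (1.09, adjusted p = 0.157) and Cd180 (1.09, adjusted p = 0.165). In those genes and in Unc93b1 (0.90) the arrays did not overlap. That makes 4 of the 16, where 1.7% of all genes lay above WT without overlap. The 6 Fc receptor genes were all higher, with a median of 0.68, and none passed, Fcer1g (0.95, adjusted p = 0.262) and Fcgr1 (0.87, adjusted p = 0.282) having the smallest p.

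Genes induced by interferon were the second group that rose. This list, too, was chosen with earlier results of these data known, so its counts are no independent test. Of 34 tested members 33 were higher in KO, 6 passed (0.367% of all genes did in that direction), and 11 did not overlap between the genotypes (1.7% of all genes). The median was 0.77, with 0.75 within block 1, 0.94 within block 2, 0.60 in males and 0.92 in females. The interferon score lay between −0.50 and −0.39 in WT and between 0.03 and 0.58 in KO. Those that passed were Rtp4, Cxcl10, Ifit1, Bst2, Ifit3 and Ifitm3.

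Rtp4, an interferon-induced chaperone of receptors, had the smallest p of all genes. It read 4.59, 4.49, 5.22, 5.14 and 4.43 in WT and from 6.87 (median 7.07) to 7.51 in KO. The rise of 2.37 ± 0.23 (5.17-fold, adjusted p = 4.18e-05) left 1.65 between the highest WT and the lowest KO array, and it was 2.43 within block 1 and 2.39 within block 2. Its 3 probe sets ranged from 1.01 to 2.44, with the brightest at 1.10.

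Cxcl10 encodes a chemokine that draws T cells through CXCR3. It read 3.71, 5.56, 4.39, 4.34 and 4.82 in WT and from 5.60 (median 6.31) to 6.74 in KO, so that WT 2 and KO 6 nearly met. It rose by 1.69 ± 0.34 (3.23-fold, adjusted p = 0.0348). The other members that rose were Ifit1 (1.62) and Ifit3 (1.30), which bind foreign RNA, Bst2 (1.38), the tetherin of budding viruses, and Ifitm3 (1.00), which blocks viral fusion. Ifit3b (1.28), a near-identical neighbour of Ifit3, passed too, and probes may not tell the 2 apart. Ly6e (1.10), another interferon-induced surface protein outside the list, passed with WT 4, at 9.40, above KO 5, at 9.28.

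The list of interferon-inducible GTPases was added after the values were seen, so its counts are no result about the list. Of 11 tested 10 were higher in KO with a median of 0.83. Igtp (1.45) and Iigp1 (1.26), which act on vacuoles of intracellular pathogens, passed (0.367% of all genes passed as higher). Gbp3 (1.12, adjusted p = 0.0575), Irgm1 (1.22, adjusted p = 0.109), Ifi47 (0.94, adjusted p = 0.159) and Irgm2 (0.82, adjusted p = 0.212) did not pass. Their arrays did not overlap, as in 1.7% of all genes in that direction. In the list of interferons, their receptors, kinases and regulators 8 of 14 tested genes were higher and 6 lower. None passed, and the median was 0.03. Of the interferons in it, Ifnb1 (2.76 in WT and 2.67 in KO) was too dim to be tested. Ifng (3.77 and 3.43) lay near the filter level of 3.41. The list therefore cannot show whether the interferons themselves differed. The smallest p in that list belonged to Socs1 (−0.46, adjusted p = 0.25), an inhibitor of interferon signalling, Sting1 (1.43, adjusted p = 0.274), a sensor of cytosolic DNA products, and Ifngr1 (0.49, adjusted p = 0.409), a receptor chain for interferon-γ.

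Promoters of the genes that rose were searched for the interferon-stimulated response element, a pair of GAAA separated by 2 free bases, on both strands, in the 250 bases before the RefSeq start (GRCm38.p6). Promoters could be matched for 43 of the 60 genes higher in KO and for 8 of the 12 lower. The element stood in 6 of the 43 (14%), in 0 of the 8, in 393 of 12693 tested genes (3.1%) and in 978 of all 32851 promoters (2.98%). It stood in 9 of 25 promoters of the interferon-stimulated list (36%) and in 0 of 16 of the homeostatic list. The 6 were Bst2, Cxcl10, Ifit1, Ifit3, Ifit3b and Igtp, and 5 of them are shown from 10 bases or more before the element to the start, with the element in capitals, because they are the called genes whose promoters carry it. A match is a run of letters and not a proven site. Ifit3 and Ifit3b were counted separately, although their promoters are nearly the same sequence where the elements lie. The coordinates and strands are chr19:34640769-34640888 (+) for Ifit1, chr19:34583363-34583528 (+) for Ifit3, chr8:71537473-71537612 (−) for Bst2, chr11:58199436-58199555 (+) for Igtp and chr5:92348890-92349112 (−) for Cxcl10.
Ifit1: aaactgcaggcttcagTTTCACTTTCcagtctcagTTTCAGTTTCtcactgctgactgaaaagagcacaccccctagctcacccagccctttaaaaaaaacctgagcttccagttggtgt
Ifit3: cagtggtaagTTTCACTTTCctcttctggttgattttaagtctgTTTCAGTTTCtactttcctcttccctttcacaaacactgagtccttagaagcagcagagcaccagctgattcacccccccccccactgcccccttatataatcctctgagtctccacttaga
Bst2: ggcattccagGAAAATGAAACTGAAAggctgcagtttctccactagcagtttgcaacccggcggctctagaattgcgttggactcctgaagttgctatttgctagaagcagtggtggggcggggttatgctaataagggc
Igtp: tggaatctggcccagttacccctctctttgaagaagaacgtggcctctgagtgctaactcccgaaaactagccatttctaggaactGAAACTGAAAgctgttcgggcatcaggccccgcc
Cxcl10: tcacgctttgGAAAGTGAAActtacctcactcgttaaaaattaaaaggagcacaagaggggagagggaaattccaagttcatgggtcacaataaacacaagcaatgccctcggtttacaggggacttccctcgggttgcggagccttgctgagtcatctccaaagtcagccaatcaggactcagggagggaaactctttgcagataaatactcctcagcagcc

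Ifit1 and Ifit3 hold the element at 2 places, whose first bases lie 85 and 104 bases before the start in Ifit1 and 122 and 156 in Ifit3. In Bst2 a pair of matches overlap, at 124 and 130 bases, while Igtp and Cxcl10 hold 1 each, at 34 and 213 bases. The letters of an AP-1 site, TGANTCA, were found in 6 of 43 promoters of the higher genes (14%) and 5.95% of tested genes. Among the 6 were Ifit3, Ifit3b (again counted separately) and Cxcl10. In those 3 promoters no match of this kind overlapped the interferon element. TGANTCA also stood in 2 of the 8 matched promoters of genes that fell, those of Itgax and Trem2. The PU.1 type site GAGGAAGT was in 4 of 43 (9.3%, Gcnt1, Hpgds, Ptgs1 and Pycard) against 2.58% of tested genes. The E-box CACGTG was in 3 of 43 (6.98%, P2ry12, Prkcd and Siglech) against 9.24%.

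Among chemokine ligands 14 of 24 tested genes were higher and 10 lower, with a median of 0.23. Cxcl5 and Cxcl10 passed, where 0.367% of all genes passed as higher. Cxcl5 encodes a chemokine that draws neutrophils. It read 4.90, 5.21, 4.25, 4.23 and 4.10 in WT and from 5.74 (median 6.47) to 6.67 in KO, a rise of 1.81 ± 0.34 (3.5-fold, adjusted p = 0.0274). Cxcl9 (2.23, adjusted p = 0.0555), a second ligand of CXCR3, read 3.38 to 4.29 in WT and 4.60 to 6.45 in KO, and Ccl12 (1.74, adjusted p = 0.0698), a monocyte chemokine, 4.40 to 6.17 and 6.41 to 7.74. Neither passed, and neither overlapped between the genotypes (1.7% of all genes lay above WT without overlap). Cxcl13 (1.46, adjusted p = 0.231), which draws B cells, was at −0.41 with its brightest probe set.

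Genes of MHC class I presentation were higher in 15 of 15 tested members, with a median of 0.57. H2-D1 (1.53), a classical class I heavy chain, was the 1 member that passed, where 0.367% of all genes passed as higher. H2-Q7 (1.13), a class I-like gene outside the list, passed as well, and since these heavy chains are close in sequence, signal may be shared between them. B2m (0.74, adjusted p = 0.071), the light chain of class I molecules, read 11.08 to 11.70 in WT and 12.03 to 12.38 in KO. The immunoproteasome subunits Psmb8 (0.86, adjusted p = 0.168) and Psmb9 (0.89, adjusted p = 0.22) overlapped between the genotypes. For class II, by contrast, 6 of 12 tested genes were higher and 6 lower, the median was 0.08 and none passed. In that list Ctss, the protease that trims the invariant chain, had the smallest p (0.70, adjusted p = 0.185).

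Complement genes were higher in 15 of 16 tested members, with a median of 0.67. The receptor subunit gene Itgam was the 1 that passed (0.367% of all genes passed as higher). The C1q chains C1qa (1.20, adjusted p = 0.0712), C1qb (1.51, adjusted p = 0.117) and C1qc (1.27, adjusted p = 0.236), and C4b (1.07, adjusted p = 0.117) and C3 (0.70, adjusted p = 0.404), did not pass. C4b stood at 6.82 to 7.62 in WT and 8.06 to 8.53 in KO, with all 18 probe sets higher.

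Among the rises were enzymes of prostaglandin and leukotriene synthesis. The list of such genes was added because they had passed, so their 3 calls among its 17 tested members are no result about the list (0.367% of all genes passed as higher). Of the 17, 12 were higher, and the median was 0.37. Ptgs1, the constitutive cyclooxygenase, read 5.26, 5.46, 5.69, 5.60 and 5.60 in WT and from 6.89 (median 7.17) to 7.50 in KO. It rose by 1.66 ± 0.25 (3.17-fold, adjusted p = 0.00556). Hpgds (1.31), the prostaglandin D synthase of blood cells, and Ltc4s (1.41), the leukotriene C4 synthase, passed too. Alox5ap (1.31, adjusted p = 0.0731), which hands arachidonate to 5-lipoxygenase, and Ptgds (0.83, adjusted p = 0.523), the lipocalin-type prostaglandin D synthase, did not.

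The falls were fewer, and 9 of the 12 were in no list. Atp6v0d2, part of the vacuolar ATPase made by macrophages and osteoclasts, read 5.60, 5.83, 4.82, 5.38 and 6.41 in WT and from 2.85 (median 3.56) to 4.18 in KO. It fell by 2.08 ± 0.40 (4.22-fold, adjusted p = 0.0282), with 9 of 9 probe sets lower. Itgax, which encodes the integrin CD11c, read 5.48, 5.55, 4.77, 5.65 and 5.91 in WT and from 3.00 (median 3.39) to 3.88 in KO, a fall of 2.02 ± 0.41 (4.07-fold, adjusted p = 0.0348). Its 28 probe sets were all lower, the brightest by 0.46, and it passed in 0 of the 11 fits that left out 1 array. The KO means of both genes, 3.53 and 3.45, lay close to the filter level of 3.41, so the sizes of these falls are uncertain.

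Both genes belong to the disease-associated microglia list. Of its 30 members, all tested, 15 were higher and 15 lower in KO, and the median was 0.03. Atp6v0d2 and Itgax were those that passed, where 0.0735% of all genes passed as lower. In 4 members every KO array lay below every WT array (0.771% of all genes), and in 2 above (1.7%). Lpl, the lipoprotein lipase, read 6.41, 6.68, 6.54, 7.17 and 7.76 in WT and from 4.37 (median 5.26) to 6.02 in KO, and missed the threshold (−1.61 ± 0.39, adjusted p = 0.071). Timp2 (0.99, adjusted p = 0.0575), an inhibitor of metalloproteinases, went the other way without overlap. Scores of this list ran from −0.34 to 0.56 in WT and from −0.43 to 0.19 in KO. Of 16 tested genes of cholesterol efflux and lipid storage none passed (7 higher, median −0.04), and Soat1, which esterifies cholesterol, was at 0.61 (adjusted p = 0.183).

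Subunits of the phagocyte NADPH oxidase were split. Cybb, its catalytic subunit, read 4.85, 6.82, 5.07, 5.89 and 7.36 in WT and from 3.51 (median 3.72) to 4.57 in KO. Every KO array lay below every WT array, and with a WT SD of 1.09 the difference of −2.14 ± 0.51 missed the threshold (adjusted p = 0.071). Its membrane partner Cyba (0.96, adjusted p = 0.302), the cytosolic subunits Ncf4 (0.66, adjusted p = 0.298) and Ncf1 (0.79, adjusted p = 0.343) and the GTPase gene Rac2 (0.50, adjusted p = 0.496) were higher in KO and did not pass. Ncf1 was at −0.22 with its brightest probe set.

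The next falls concerned genes that are not known as markers of microglia. Moxd1, a monooxygenase related to dopamine β-hydroxylase, read 5.09, 6.67, 6.96, 6.23 and 6.23 in WT and from 4.00 (median 4.46) to 5.65 in KO. It fell by 1.60 ± 0.33 (3.03-fold, adjusted p = 0.0348) although WT 1 lay below KO 4 and KO 6. Ostn, which encodes the secreted peptide osteocrin, read 5.64, 5.55, 6.11, 4.62 and 4.94 in WT and from 3.32 (median 3.90) to 4.53 in KO, a fall of 1.48 ± 0.28 (2.78-fold, adjusted p = 0.0274). Grpr, the receptor of gastrin-releasing peptide, read 4.28, 4.02, 4.19, 4.54 and 4.12 in WT and from 2.22 (median 3.17) to 3.63 in KO. It fell by 1.18 ± 0.25 (2.26-fold, adjusted p = 0.0399), with a KO mean of 3.05 that lies under the filter level.

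Fhod3, a formin of muscle sarcomeres, read 5.53, 5.23, 5.70, 4.99 and 5.50 in WT and from 3.91 (median 4.45) to 4.76 in KO, a fall of 0.97 ± 0.21 (1.97-fold, adjusted p = 0.0471). Cyp2d40, a cytochrome P450 of a large family with close copies, read 5.22, 4.99, 5.22, 5.77 and 5.63 in WT and from 3.69 (median 4.51) to 4.91 in KO. It fell by 0.93 ± 0.20 (1.91-fold, adjusted p = 0.0471), by 0.49 within block 1 and by 1.29 within block 2. Smaller falls were those of Erfe (−0.92), which encodes the hormone erythroferrone, Zfp454 (−0.90), a zinc finger gene, Barx2 (−0.76), a homeobox gene, and Trim66 (−0.74), a chromatin reader. Erfe was at 0.01 with its brightest probe set.

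Ecscr and Cnmd were large rises that the lists do not place. Ecscr, known from endothelium, read 5.10, 4.51, 5.23, 5.85 and 3.95 in WT and from 6.03 (median 6.86) to 7.52 in KO. It rose by 1.94 ± 0.32 (3.85-fold, adjusted p = 0.0105) with 9 of 10 probe sets higher, but the brightest was at −0.33. Other endothelial genes did not pass (0 of 13 tested, median 0.30). Cnmd, which encodes the anti-angiogenic protein chondromodulin, read 4.39, 4.48, 4.55, 4.14 and 3.73 in WT and from 5.54 (median 6.11) to 6.46 in KO, a rise of 1.81 ± 0.34 (3.51-fold, adjusted p = 0.0274).

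Astrocyte genes were higher in 14 of 15 tested members, with a median of 0.45. Slc4a4 (1.01 ± 0.17, adjusted p = 0.0105), a sodium bicarbonate cotransporter, passed (0.367% of all genes passed as higher). It read 6.50 to 7.22 in WT and 7.78 to 8.02 in KO, with 24 of 25 probe sets higher, though the brightest was at 0.27. Atp1b2 (0.61, adjusted p = 0.0933), a sodium pump subunit, and Gfap (0.65, adjusted p = 0.231), the intermediate filament of astrocytes, did not overlap and did not pass. Over all genes 1.7% lay above WT without overlap. Aldoc (0.47), Slc1a2 (0.45) and Aqp4 (1.02) overlapped. Of 15 tested genes of reactive astrocytes 11 were higher, none passed and the median was 0.21.

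Among the remaining rises were several genes of lipid and small-molecule metabolism. These were Thrsp (1.39), which promotes fatty acid synthesis, Aldh1a1 (1.46), which makes retinoic acid, Cyp7b1 (0.94), an oxysterol hydroxylase, Pde3b (1.54), a phosphodiesterase, and Sugct (0.99), a CoA transferase. Transport and channel genes that rose were Slc39a12 (1.25), a zinc transporter, Scnn1a (1.29), a subunit of the epithelial sodium channel, and Gabrg1 (1.17), a subunit of GABA receptors. Gcnt1 (1.49) and Glycam1 (1.35) act on or carry glycans that selectins bind. The others were Tdgf1 (1.34), a co-receptor for Nodal, Padi2 (1.09), which citrullinates myelin basic protein, Lgi4 (0.95), a secreted glial ligand, Syngr1 (1.04), a vesicle protein, Cdc42ep3 (1.08), an effector of CDC42, Rerg (1.12), a small GTPase, and Kctd4 (1.15) and Zfp882 (0.85). A further 3 genes with clone or predicted names rose.

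**Figure D4:**
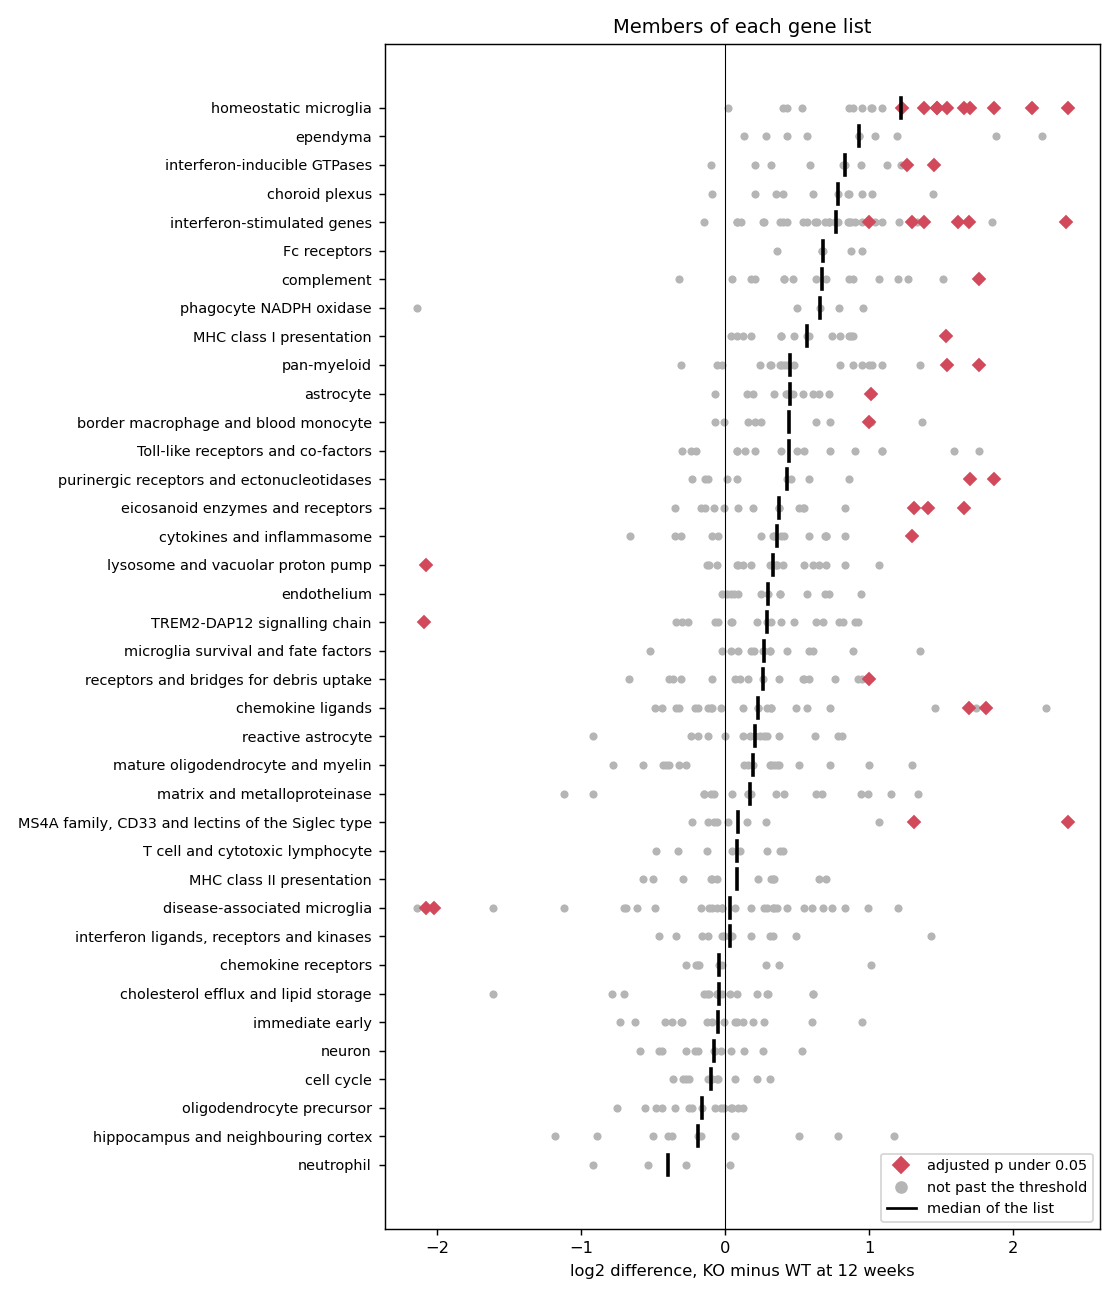
Log2 difference of KO from WT at 12 weeks (horizontal axis) for each tested member of the gene lists shown (rows, ordered by median). Red diamonds passed, grey points did not, and black bars are list medians, which run from 1.22 for homeostatic microglia to −0.40 for neutrophil genes.

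The myelin and oligodendrocyte genes did not pass in either direction. Of 19 tested genes of mature oligodendrocytes 12 were higher and 7 lower, with a median of 0.19, which was 0.83 within block 1 and −0.43 within block 2. Their scores ran from −0.80 to 0.63 in WT and from −0.66 to 1.11 in KO. Mbp was −0.78 from WT (adjusted p = 0.503), with 0.05 within block 1, while Hapln2 (0.73, adjusted p = 0.343), a matrix link protein of nodes, and Aspa (1.30, adjusted p = 0.46), which cleaves N-acetylaspartate, were higher. Precursor genes were lower in 11 of 15 tested members (median −0.16). In that list Gpr17 (−0.56, adjusted p = 0.356, and 0.08 within block 1) overlapped. Nkx2-2 (−0.48, adjusted p = 0.46) did not, where 0.771% of all genes lay below WT without overlap.

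Genes of tissue next to the tract differed between single arrays. Ependyma genes, which mark the ciliated lining of the ventricles, were higher in 10 of 10 tested members with a median of 0.93, and none passed. That median was 0.37 in males and 1.57 in females, 0.54 and 1.29 within the blocks, and −0.17 at 6 weeks. Mia (1.88, adjusted p = 0.0538) and Tmem212 (2.20, adjusted p = 0.136) had the smallest p. The ependyma score ran from −0.81 to 0.11 in WT and from −0.27 to 1.34 in KO, highest in KO 5. Choroid plexus genes had a median of 0.78 (10 of 11 higher), which was −0.17 in males and 1.75 in females, and the scores of KO 5 (1.43) and KO 6 (1.65) were the highest. Folr1, a folate receptor of that epithelium, was at 0.95 (adjusted p = 0.592). Of 11 tested genes of hippocampus and neighbouring cortex 4 were higher and 7 lower (median −0.19), with Prox1 (1.17, adjusted p = 0.0538) and Wfs1 (−0.89, adjusted p = 0.112) and Crym (−1.18, adjusted p = 0.206) on opposite sides. The part of neighbouring tissue in the 72 genes was not tested.

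Other lists gave 1 call or none, where 0.367% of all genes passed as higher and 0.0735% as lower. Of 19 tested lysosome and proton pump genes Atp6v0d2 fell and no other passed (15 higher, median 0.33), with Grn (1.07, adjusted p = 0.201), which encodes progranulin, among the smallest p. Of 17 tested receptors and bridges for debris uptake Stab1 passed (12 higher, median 0.26), while the integrin gene Itgb5 (0.76, adjusted p = 0.0765) and the phosphatidylserine-sensing kinase gene Mertk (0.95, adjusted p = 0.0963) did not. Jun was at 0.95 (adjusted p = 0.0731) among 16 immediate early genes with a median of −0.05 and no calls. Cell cycle genes (12 tested, median −0.10), matrix genes (18 tested, median 0.17), neuronal genes (13 tested, median −0.08) and genes of microglia survival (15 tested, median 0.27) had no member that passed.

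Probe sets of a gene did not always agree. Among called genes with more than 1 probe set, every probe set had the sign of the gene in 33 of 57 higher and in 7 of 12 lower genes. The gene value of 3 called genes rested on 1 probe set, Ifit3b among them. With the brightest probe set in place of the median 61 genes passed, of which 27 were among the 72. The brightest probe set gave a difference over 1.5 times smaller than the gene value, or of the other sign, in 26 of the 72, and over 1.5 times larger in 4. Beside the genes whose brightest probe set is given above, the 26 hold Selplg (0.40 with the brightest), Rgs10 (0.18), Glycam1 (0.26), Scnn1a (0.40), Sugct (0.16), Stab1 (0.57), Ly6e (0.70), Rerg (0.74), Tdgf1 (0.74), Hpgds (0.79), Pde3b (0.84), Aldh1a1 (0.85), Golm1 (0.85) and H2-D1 (1.01). Of the genes that fell they hold Ostn (−0.81), Trim66 (−0.46), Barx2 (−0.45), Cyp2d40 (−0.26) and Zfp454 (−0.18).

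The 6-week arrays offered the same comparison in other samples, and no array is shared between the stages. Of the 72 genes 61 had the same sign at 6 weeks and 6 passed at both stages, where 7 genes (0.0429%) passed at 6 weeks in all. Trem2 itself was at −1.49 there and did not pass (adjusted p = 0.248). The difference was larger in size at 12 than at 6 weeks in 59 of the 72, which were chosen for their size at 12 weeks. Among the 13 that were larger at 6 weeks were P2ry12 (2.47), P2ry13 (2.19), Crybb1 (1.75) and Itgax (−2.60), while Siglech was at 2.30, and Rtp4 was at 1.21. Cxcl5 (−0.41), Cnmd (−0.54), Scnn1a (−0.62) and Rerg (−0.85) were on the other side of 0 at 6 weeks.

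Whether the genotype difference itself differed between stages was tested by an interaction term in the same limma fit. No gene passed (smallest adjusted p = 0.414), 851 genes had an unadjusted p under 0.05, and no other tool was run for this term. The largest positive terms were those of Car12 (2.39), a carbonic anhydrase, Sostdc1 (2.35), a secreted inhibitor of BMP and Wnt signals, and Cnmd (2.35). The largest negative ones were those of Ccn1 (−2.54), a matrix protein, Ppp1r26 (1.07 at 6 and −0.92 at 12 weeks), a phosphatase subunit, and the immediate early gene Egr1 (−1.89). Their adjusted p lay between 0.648 for Cnmd and 0.917 for Car12 and Sostdc1. Sostdc1 belongs to the choroid plexus list, whose median was −0.57 at 6 weeks. Among the 12-week arrays Car12 (6.14 and 6.00) and Sostdc1 (7.31 and 8.32) were highest in KO 5 and KO 6, as was the choroid plexus score. The part of neighbouring tissue in these interaction terms was not tested. With 3 KO arrays at 6 weeks, an unpassed interaction does not show that the stages were alike.

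**Figure D5:**
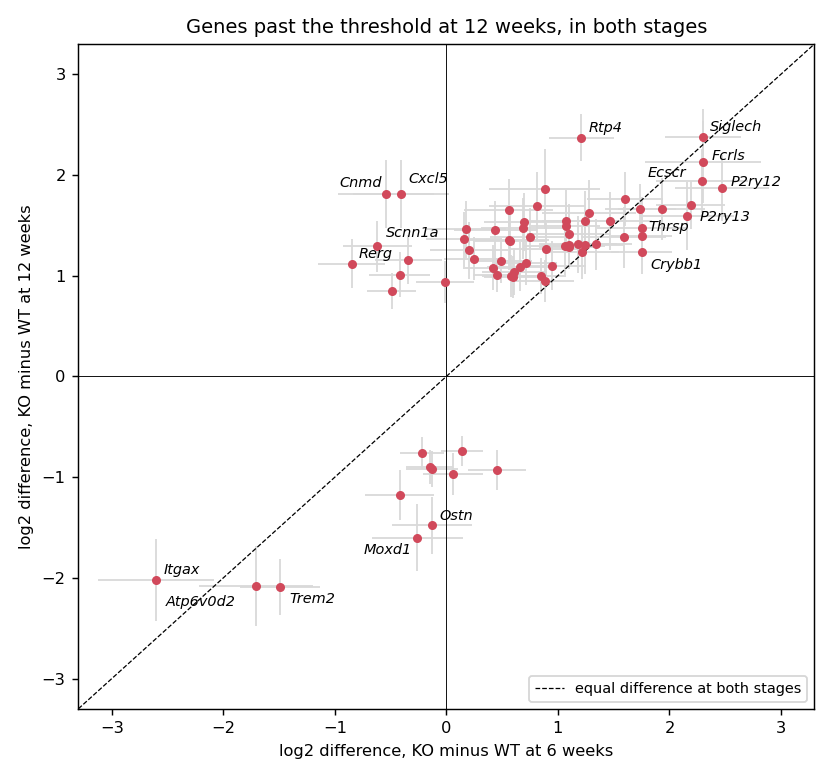
Log2 difference of KO from WT at 6 weeks (horizontal axis) and at 12 weeks (vertical axis) for the 72 genes that passed at 12 weeks, with bars of 1 standard error. Points on the dashed line differ equally at both stages. P2ry12, at 2.47 and 1.87, lies to the right of it, and Cxcl5 and Cnmd, at −0.41 and −0.54 at 6 weeks, lie left of 0.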

How the data were processed

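The data are 18 one-colour arrays of amplified RNA from the caudal corpus callosum. Per the labels' protocols, RNeasy columns gave the RNA, NuGen WT-Ovation Pico amplified it, and biotin was the label. The deposited table holds the authors' processed log2 values of 241576 probe sets, from 0.732 to 13.674, with array medians from 5.26 to 5.41. The background correction and normalization behind these log2 values are not given in the sources used here. Amplification of small amounts of RNA can compress or distort differences between transcripts. All 18 columns were matched to samples, and 0 columns were left unmatched.

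Of the probe sets 212097 carried 1 gene symbol, 4475 several and 25004 none. Probe sets with 1 symbol were used. Symbols were brought up to date with the RefSeq table of GRCm38.p6, which changed 2668 of them, and 127 of 20416 genes were not found there. The value of a gene is the median of its probe sets (8 at the median). The dimmest 20% of genes, with a mean at or below 3.41, were left out, and 16332 were tested.

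Differences were tested with limma 3.58.1 in R 4.3.3, with 4 group means over all 18 arrays, Benjamini-Hochberg adjustment over all tested genes and a threshold of 0.05. Every adjusted p in the text comes from limma. In simulated data of the same size 66 of 100 genes changed by 1 on the log2 scale and 98 of 100 changed by 2 were called, with 8 false calls. The simulated noise was independent between genes, without shared effects of array, sex, block or dissection. These rates therefore need not hold for the real arrays. Tables and plots were made in Python 3.11.15 with numpy 2.4.6, pandas 2.3.3 and matplotlib 3.10.9.

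Gene lists and members were chosen with earlier results of these data known, and 2 lists were added after their values were seen. By rule, the text names Trem2 and its family, every gene past the threshold, up to 6 members of each described list with the smallest p, and the 3 largest interaction terms each way. Full values are given for the 12 largest rises and 8 largest falls. Clone and predicted names are counted only, except where a single array stood apart. Marker genes of the tissue and of other cell types were taken from a set list. Alternatives covered normalization, filter, probe set summary, weights, blocks, sex and leaving out each array.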

Additional observations from a re-analysis of the deposited data

Results flagged for a closer look

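Single arrays that stood apart from their group by Dixon's test were sought in 222 groups of values, and 8 were found. That is a smaller share than the 1 in 20 that chance gives. The flags therefore describe these values and do not show that an array is an outlier. Of these 4 were KO 1. It read 8.57 in Rgs10 (other KO arrays 9.31 to 9.60), 6.85 in Pycard (7.44 to 7.77) and 5.66 in Ltc4s (6.34 to 6.64), and its homeostatic score was 0.02 (0.53 to 0.81). All 4 values lay on the side of WT. WT 2 was the highest WT array in Aldh1a1, at 8.12 (6.94 to 7.25). WT 4 had the highest WT score of border macrophage and monocyte genes, 0.14 (−0.46 to −0.33). Genes with clone or predicted names gave the other 2: WT 4 was at 4.69 in D830030K20Rik (5.51 to 5.83), and KO 3 at 4.03 in Gm4951 (5.08 to 5.71).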

How the results depend on the processing

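The number of called genes, 72 as reported, depended on the arrays and settings used. Leaving out 1 array at a time gave 14 (without WT 3) to 129 (without KO replicate 2 of 6 weeks), and among the 12-week arrays at most 73. It was 45 after quantile normalization, 191 with array weights, 234 with the 12-week arrays alone, 218 without the 2 six-week arrays of lowest weight, 154 at an adjusted p of 0.10, 5 within block 1, 36 in males and 5 in females. The mean of the probe sets gave 108, of which 58 were among the 72, and the brightest probe set gave 61, of which 27 were. The median of all genes was 0.02, and −0.02 and −0.07 after quantile normalization and centring.

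Trem2 was lower in every setting run, from −1.61 to −2.42, and missed the threshold within block 1 (−1.65, adjusted p = 0.18) and in females (−1.61, adjusted p = 0.106), which hold fewer arrays. With the brightest probe set the sign turned in Erfe (0.01), Pycard (−0.16), Ecscr (−0.33), Treml2 (0.03), Vav3 (−0.60), Vav1 (−0.09), Ncf1 (−0.22), Cxcl13 (−0.41), Mrc1 (−0.84) and Cbr2 (−0.34). It also turned in Treml1 in females (0.01), in Treml2 within block 2 (0.07) and in females (0.50), and within block 1 in Mbp (0.05) and Gpr17 (0.08). The cause was not tested. With the replicate number as a block 38 genes were called, 29 of them among the 72. Arrays of the same number correlated weakly in their deviations, by 0.02 to 0.10. Yet 4 of 5 WT arrays matched the KO array of their own number best, and WT 3 matched KO 5. Whether the numbers mark pairs was not settled, and the main fit did not use them. No interaction term passed in the settings run. The level of signal over background is not known, so small differences in dim genes are the least certain.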
